A study of Mus musculus with 4 samples.

Results

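Immunoglobulin and B lineage transcripts were followed here as 7 genes of the 12596 in a single-cell UMI table: Igkc, Igha, Jchain, Mzb1, Cd79a, Cd79b and Ms4a1. The genes were selected on values seen in these data, and all 7 were found by their Ensembl identifier. The cells came from the colonic lamina propria of 4 male C57/Bl6N mice, 2 gavaged with diesel exhaust particles (DEP; mice 14 and 15) and 2 with PBS alone (mice 2 and 3). Each DEP dose held 12 µg of particles in 200 µL of PBS, and gavage was given 5 days per week for about 6 months. Cells were sorted for CD11b together with Ly6C or CD64, a gate for monocytes and macrophages, and each mouse filled 1 well of a 10x Chromium chip, so that well and mouse cannot be told apart. The study asked how swallowed particles alter these macrophages, and B lineage cells were not its target. Its methods removed cells whose reference-based annotation was neither monocyte nor macrophage before the analysis, whereas all cells of the deposited table were used here.

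A unique molecular identifier (UMI) marks 1 captured RNA molecule, and the table held 943 cells of at least 1000 UMIs each and 747351 to 1349134 UMIs per mouse. A cell was called multi-member where at least 3 of the 6 members other than Igkc had a UMI, and the other cells are called remaining cells. This rule took 48 of 943 cells and left 895. Of the 48, 8 came from mouse 14, 21 from mouse 15, 8 from mouse 2 and 11 from mouse 3. Intervals given for shares and ratios are exact 95% binomial intervals, which cover counting error only.

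B lineage cells are born in the bone marrow, where each rearranges 1 variable segment of a light chain locus and 1 of the heavy chain locus, so that the segment in use is a mark of the cell and its clone. B cells carry the antibody on their surface together with Cd79a and Cd79b, the signalling chains of the B cell receptor, and with Ms4a1, the surface protein CD20. Plasma cells secrete it in bulk. In the gut most of them make IgA, whose heavy chain constant region is Igha, whose light chain is mostly kappa (constant region Igkc), and whose dimers are joined by the J chain (Jchain) with the help of the endoplasmic reticulum chaperone Mzb1.

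The genes lie apart in the GRCm38 annotation. Igkc is the constant region of the kappa locus at chr6:70726435-70726966 on the plus strand, and Igha that of the heavy chain locus at chr12:113254830-113260236 on the minus strand. Jchain lies at chr5:88519809-88527891 (minus strand), Cd79a at chr7:24897381-24902197 (plus strand), Cd79b at chr11:106311341-106314762 (minus strand) and Ms4a1 at chr19:11249675-11266241 (minus strand). Promoters of Jchain and Cd79a (RefSeq, GRCm38.p6, 250 bases before to 50 after the start) were searched, those of the other 5 members were not analysed here, and neither window held the octamer ATGCAAAT or the letters CCCNNGGG on either strand. The octamer was in 1.74% and CCCNNGGG in 13.7% of all 32851 promoters.

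The sequences shown are those of 8 kappa variable segments, since each led the kappa transcripts of 1 cell and could then be looked for in the remaining cells of every mouse. The last 60 bases of each are printed from the GENCODE vM21 transcripts on GRCm38, 5′ to 3′ as transcribed. Capitals mark the bases after the codon of the conserved last cysteine, where the third complementarity-determining region begins.
Igkv4-72 (chr6:69226854-69226913, minus strand; mouse 14): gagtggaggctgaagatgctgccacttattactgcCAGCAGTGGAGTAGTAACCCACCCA
Igkv9-124 (chr6:67942074-67942133, minus strand; mouse 14): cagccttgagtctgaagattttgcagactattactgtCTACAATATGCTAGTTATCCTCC
Igkv6-15 (chr6:70406469-70406528, minus strand; mouse 15): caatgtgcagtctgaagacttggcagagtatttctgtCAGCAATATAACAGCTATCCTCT
Igkv15-103 (chr6:68437866-68437925, plus strand; mouse 15): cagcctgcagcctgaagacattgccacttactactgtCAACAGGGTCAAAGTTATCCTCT
Igkv6-32 (chr6:70074024-70074083, minus strand; mouse 15): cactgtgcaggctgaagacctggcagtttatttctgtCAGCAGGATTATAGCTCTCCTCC
Igkv2-109 (chr6:68303099-68303158, plus strand; mouse 15): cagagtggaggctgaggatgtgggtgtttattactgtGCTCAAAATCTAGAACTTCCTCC
Igkv19-93 (chr6:68736297-68736356, minus strand; mouse 3): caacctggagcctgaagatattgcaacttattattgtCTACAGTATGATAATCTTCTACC
Igkv14-111 (chr6:68256810-68256869, plus strand; mouse 3): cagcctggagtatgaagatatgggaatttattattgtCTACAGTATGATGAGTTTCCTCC
Over their whole annotated transcripts the 28 pairs of these segments were 61.8% to 81.6% identical. Closer relatives in the same table were Igkv4-61 beside Igkv4-72 (94.8%), Igkv9-120 beside Igkv9-124 (95.2%), Igkv2-116 beside Igkv2-109 (95.9%), and Igkv6-13 (93.7%) and Igkv6-17 (90.8%) beside Igkv6-15, and counts of these relatives in the same cells are uncertain.

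The transcripts of antibody secretion were held by very few cells. Igkc had 13279 UMIs in mouse 14, 26386 in mouse 15, 696 in mouse 2 and 6372 in mouse 3. Of these, 97.3% (interval 97.0% to 97.5%) lay in multi-member cells in mouse 14, 97.3% (97.1% to 97.5%) in mouse 15, 44.7% (41.0% to 48.5%) in mouse 2 and 96.9% (96.5% to 97.3%) in mouse 3. Mouse 2 thus stood apart both in its total and in its split, while the other PBS mouse divided its UMIs as the DEP mice did.

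Igha and Jchain divided in the same way. Igha had 4838, 8487, 134 and 2325 UMIs in mice 14, 15, 2 and 3, of which 97.0%, 96.5%, 38.1% and 95.1% were in multi-member cells. Jchain had 2266, 5472, 116 and 1287 UMIs, of which 95.8%, 97.4%, 46.6% and 94.9% were in multi-member cells. Mzb1 was scarcer, with 42, 74, 6 and 40 UMIs, and only 4 of them in mouse 15 and 1 in mouse 3 fell in remaining cells.

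The receptor chains and CD20 behaved otherwise. Cd79a had 24, 50, 10 and 14 UMIs, of which 75%, 76%, 80% and 92.9% were in multi-member cells. Cd79b had 32, 55, 32 and 60 UMIs, and here most lay outside: 28.1%, 43.6%, 15.6% and 25.0% were in multi-member cells. Ms4a1 had 2, 10, 1 and 2 UMIs in 9 cells, too few to place.

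**Figure D1:**
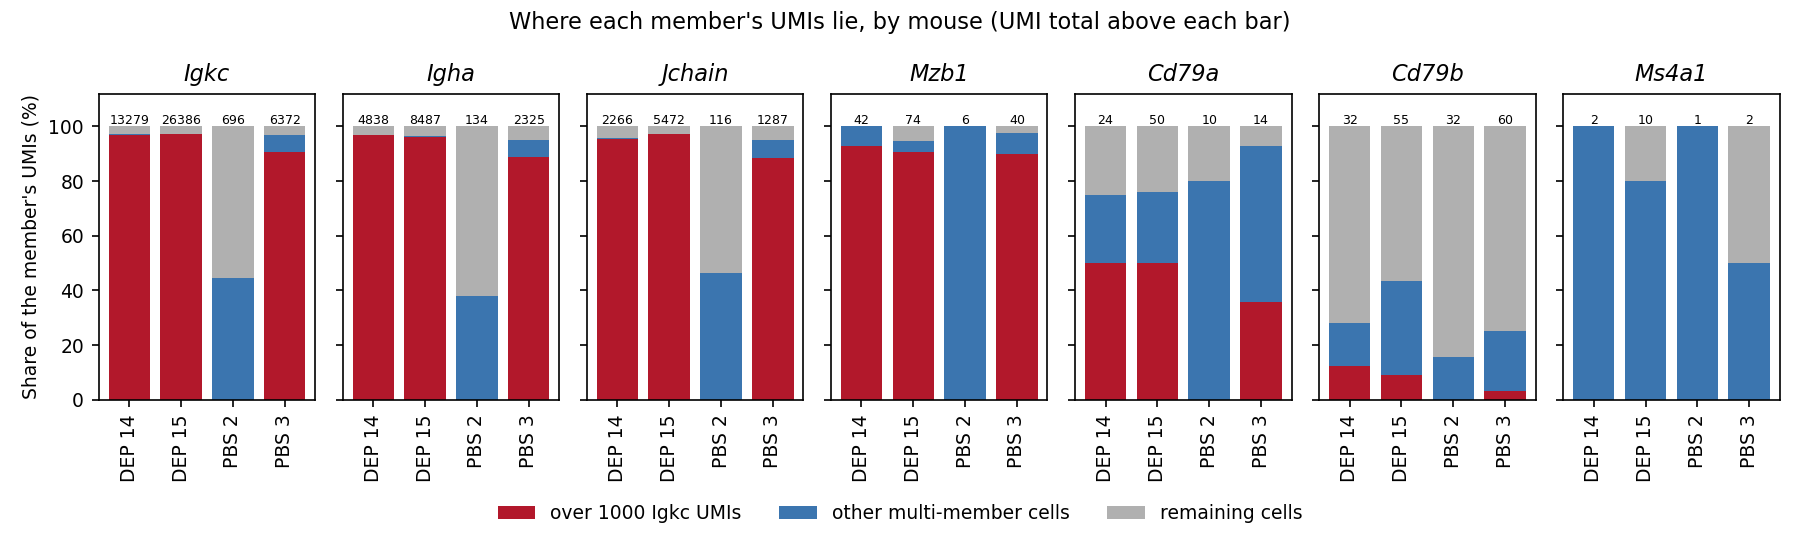
Share of each member's UMIs (%, vertical axis) by mouse (horizontal axis) that lay in the 8 cells of over 1000 Igkc UMIs, in the other 40 multi-member cells and in the remaining cells, with the UMI total above each bar. Igkc, Igha, Jchain and Mzb1 lay almost wholly in the 8 cells except in mouse 2, which had none of them, while most Cd79b lay in remaining cells in every mouse.

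Within the 48 cells the UMIs were again uneven. Of them, 8 held between 2436 and 10961 Igkc UMIs, and the next cell held 358 and the one after it 81. These high-immunoglobulin cells, 2 in mouse 14, 4 in mouse 15, none in mouse 2 and 2 in mouse 3, held 94.7% of all Igkc, 94.4% of Igha, 94.2% of Jchain and 87.7% of Mzb1, but 42.9% of Cd79a, 6.15% of Cd79b and no UMI of Ms4a1. In mouse 2 they were 0 of 200 cells, which allows a share of up to 1.5% where a count of 0 is taken to allow 3 counts.

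Such concentration was rare in the table. Among the 3728 genes with at least 100 UMIs, the 8 cells richest in a gene held a median of 10.1% of its UMIs. For Igkc the figure was 94.7%, for Igha 94.4% and for Jchain 94.2%, ranks 11, 12 and 13, with Mzb1 at rank 19 (87.7%). Cd79b, at 11.2% and rank 1529, was close to that median.

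**Figure D2:**
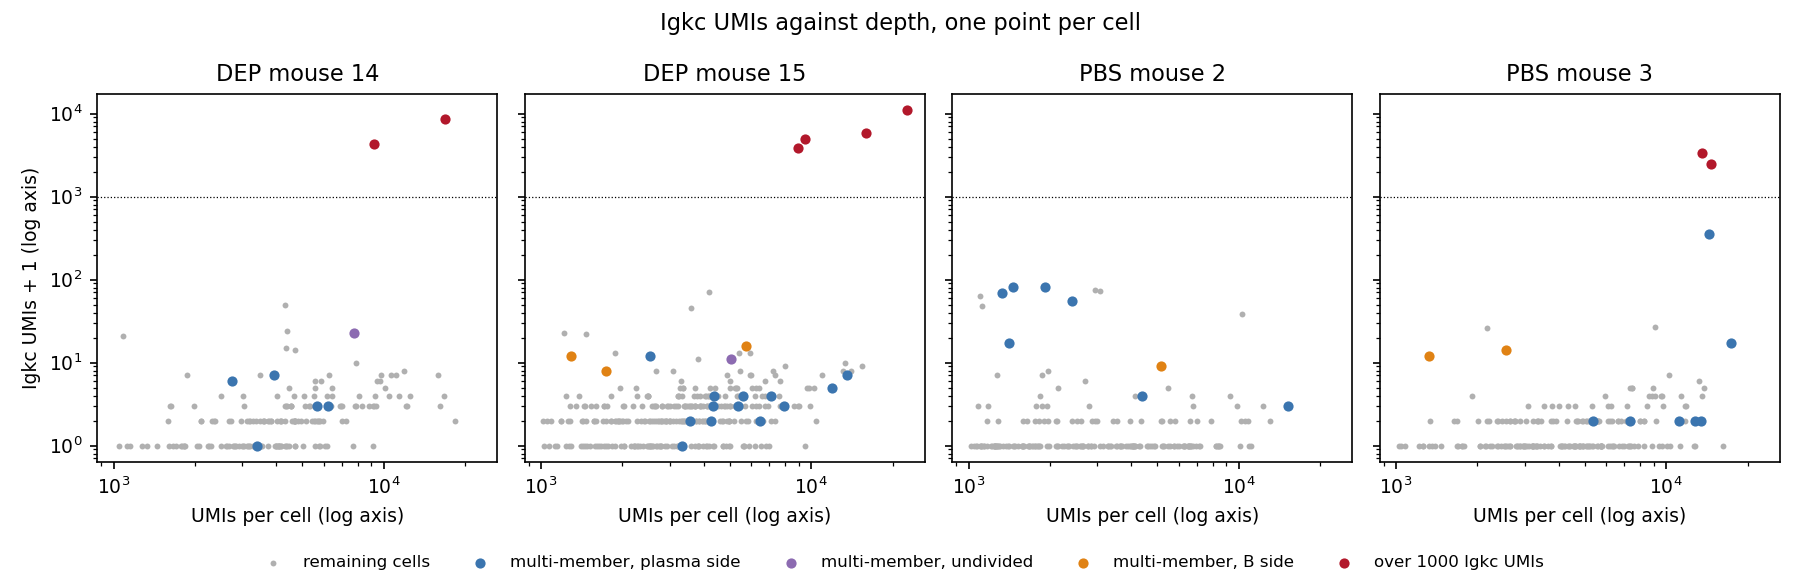
Igkc UMIs plus 1 per cell (vertical log axis) against all UMIs of the cell (horizontal log axis), in 1 panel per mouse, with the dotted line at 1000 Igkc UMIs and colours for the cell classes. The 8 high-immunoglobulin cells stand alone above the line in mice 14, 15 and 3. In mouse 2, 9 cells of 1101 to 10265 UMIs sit between 38 and 81 Igkc UMIs.

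The 8 cells differed in how much of their RNA was immunoglobulin. In mouse 14 the 2 cells had 8521 and 4357 Igkc UMIs of 16904 and 9173 in all, with 3565 and 1117 UMIs of Igha. In mouse 15 the 4 cells had 10961, 5913, 4909 and 3818 Igkc UMIs, and 1650, 3106, 1913 and 1490 of Igha. In mouse 3 the 2 cells had 3337 and 2436 Igkc UMIs, and 1070 and 993 of Igha. All immunoglobulin genes and Jchain together made up 62.1% to 82.9% of the UMIs in the 6 cells of the DEP mice, and 37.8% and 28.0% in the 2 of mouse 3.

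The plasma cell markers fixed beside the members were in these cells. Of 17 markers, 16 were detected in the 8 cells, at 116 UMIs per 10000 UMIs outside immunoglobulin genes and Jchain, against 11.2 in the remaining cells. Xbp1, the transcription factor of the secretory programme, had 98 UMIs in all 8 cells, or 23.4 per 10000 against 1.55 in the remaining cells. The endoplasmic reticulum proteins Sec11c, Pdia4, Sdf2l1 and Creld2 stood at 16.5, 15.3, 13.1 and 11.2 per 10000, against 1.68, 1.40, 3.54 and 0.647. Derl3, another protein of that compartment, was in all 8 cells, the plasma cell surface protein Sdc1 in 7, and the survival receptor Tnfrsf17 in 5. The transcriptional repressor Prdm1 had no UMI in the 8 cells and 183 in the remaining cells. These are descriptions of cells chosen for their Igkc, and no test was made.

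Of the 8, 3 also carried macrophage transcripts. The sum of 14 macrophage markers was 382 to 492 per 10000 in 1 cell of mouse 15 and both cells of mouse 3, with 25 to 44 UMIs of the complement gene C1qa. In the other 5 cells it was 24.1 to 88.3, with 0 to 2 UMIs of C1qa. The remaining cells had a median of 715, and 5% of them were under 274. The 3 cells had 8421 to 10572 UMIs outside immunoglobulin, against 1620 to 4389 in the other 5. Whether they are 2 cells in 1 droplet was not tested. No doublets were removed here, and a simulated search in the study's methods marked none.

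The sort markers were sparse in the 8 cells. Itgam, the gene of CD11b, had no UMI in any of them, and was found in 32.8% of remaining cells. Ly6c2 was found in 4 of 8 (37 UMIs) and Fcgr1, the gene of CD64, in 1 of 8, against 13.3% and 51.1% of remaining cells. By RNA, 29.9% of remaining cells also lacked all 3 markers.

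Among the other 40 multi-member cells, 6 were on the B side of the rule (more of Cd79a, Cd79b and Ms4a1 than of Igha, Jchain and Mzb1), 32 on the plasma side and 2 undivided. The B side cells, 3 in mouse 15, 1 in mouse 2 and 2 in mouse 3, had 7 to 15 Igkc UMIs and no Jchain. For 100 Igkc UMIs they had 36.9 of Cd79a (interval 22.1 to 59.8), 20.0 of Cd79b (10.1 to 36.6), 13.8 of Ms4a1 (6.06 to 27.9) and 7.69 of Igha (2.42 to 18.9). In the 8 high-immunoglobulin cells the same figures were 0.0949, 0.0249, 0 and 33.7. Both classes were set by these genes, so that the order of the ratios was fixed by the choice of cells. Of 17 B cell markers in the table, 15 were detected in the 6 cells. Ebf1, a transcription factor of early B cell fate, had 14 UMIs in 4 of the 6, and Ly6d, a surface marker of the lineage, 19 UMIs in 5. Ly6d stood at 10.7 per 10000 here and at 12.2 in the high-immunoglobulin cells. Pax5 and Ralgps2 had no UMI in the 6 cells, and Blnk stood at 0.565 per 10000 against 0.693 in remaining cells. The summed level of the 17 markers was 42.4 per 10000 against 2.71 in remaining cells. Of the 6, 3 had under 50 macrophage marker UMIs per 10000, and the highest had 782.

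The 32 plasma side cells were mostly of another kind. Their median macrophage marker level was 796 per 10000, close to the 715 of the remaining cells, and their plasma cell markers stood at 12.0 per 10000 against 11.2. Most had met the rule with 1 or 2 UMIs each of Igha, Jchain and Cd79b. One cell of mouse 3, with 358 Igkc, 140 Igha and 74 Jchain UMIs and 50 of C1qa, held more immunoglobulin than the others. Another, in mouse 2, had 3 UMIs of Cd79a, 10 of the B cell markers and only 14.4 macrophage marker UMIs per 10000. Since macrophage markers ran high in most of these cells, they are called by the rule, multi-member cells, and not B lineage cells.

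**Figure D3:**
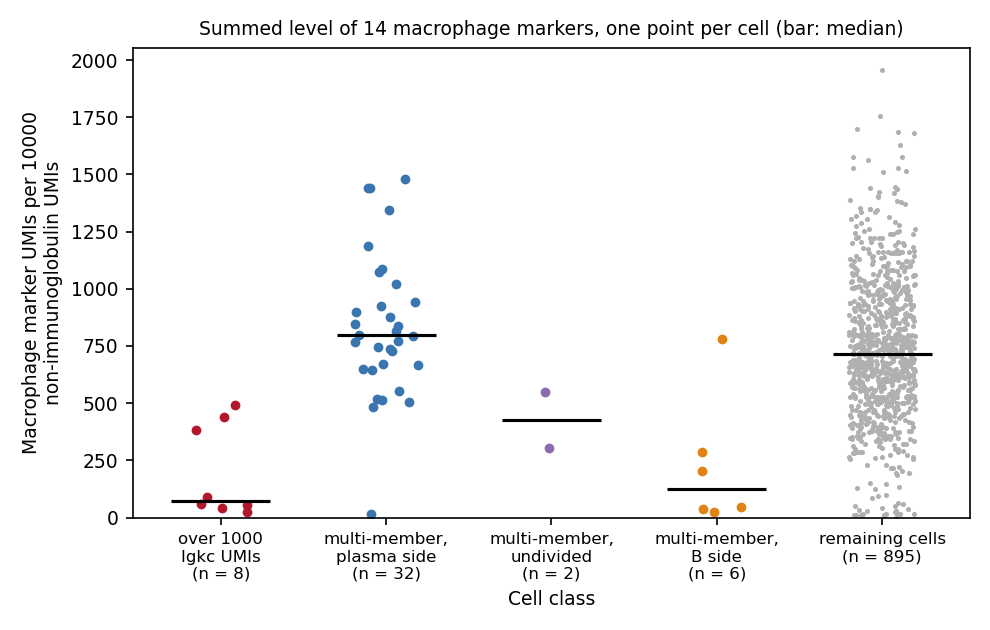
Summed UMIs of 14 macrophage markers per 10000 UMIs outside immunoglobulin genes (vertical axis) in each cell, by class (horizontal axis), with a bar at the median. The plasma side cells centre at 796 and the remaining cells at 715, while 5 of the 8 high-immunoglobulin cells lie under 100.

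Values just outside and just inside the rule were close. The 152 cells with exactly 2 members had a median of 5302 UMIs, 2 Igkc UMIs and 789 macrophage marker UMIs per 10000. The 35 cells with exactly 3 members had a median of 5176 UMIs, 3 Igkc UMIs and 770 per 10000. At the other end, 400 cells had none of the 6 members, at a median of 3000 UMIs, and 159 of them still had Igkc.

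The kappa transcripts of each high-immunoglobulin cell were led by another segment. In mouse 14, Igkv4-72 made up 240 of the 255 Igkv UMIs of 1 high-immunoglobulin cell (94.1%, interval 90.5% to 96.7%) and Igkv9-124 made up 111 of 122 in the other (91.0%, 84.4% to 95.4%). In mouse 15, Igkv6-15 led with 141 of 188, Igkv15-103 with 148 of 148, Igkv6-32 with 142 of 144 and Igkv2-109 with 65 of 73. In mouse 3, Igkv19-93 held 82 of 82 and Igkv14-111 held 77 of 77. No segment led in more than 1 cell.

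Most Igkv UMIs of the remaining cells were of segments that led in a cell of the same mouse. In mouse 14 they had 15 Igkv UMIs, of which 13 were of its own leading segments and 1 of those of other mice. In mouse 15 the figures were 72, 54 and 1, and 69 once the relatives Igkv6-17, Igkv6-13 and Igkv2-116, each with at least 5 UMIs in a high-immunoglobulin cell of that mouse, were counted too. In mouse 3 they were 13, 10 and 1. Over all mice, 77 of 109 Igkv UMIs in remaining cells (70.6%, interval 61.2% to 79.0%) were of a segment that led in a cell of the same mouse, and 3 were of one that led only in another mouse. They were spread thinly, since the 17 UMIs of Igkv6-15 lay in 16 cells and the 12 of Igkv2-109 in 12.

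Heavy chain segments were fewer, and most of their UMIs lay in 1 mouse each. Ighv10-3, the leading heavy segment of 1 cell in mouse 14 with 6 UMIs there, had 12 UMIs in remaining cells of that mouse and none elsewhere. Ighv1-18, with 6 UMIs in the Igkv15-103 cell of mouse 15, had 13 in remaining cells of mouse 15 and 1 in those of mouse 14. Ighv14-2 had 9 UMIs in remaining cells of mouse 3 and none in a high-immunoglobulin cell.

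**Figure D4:**
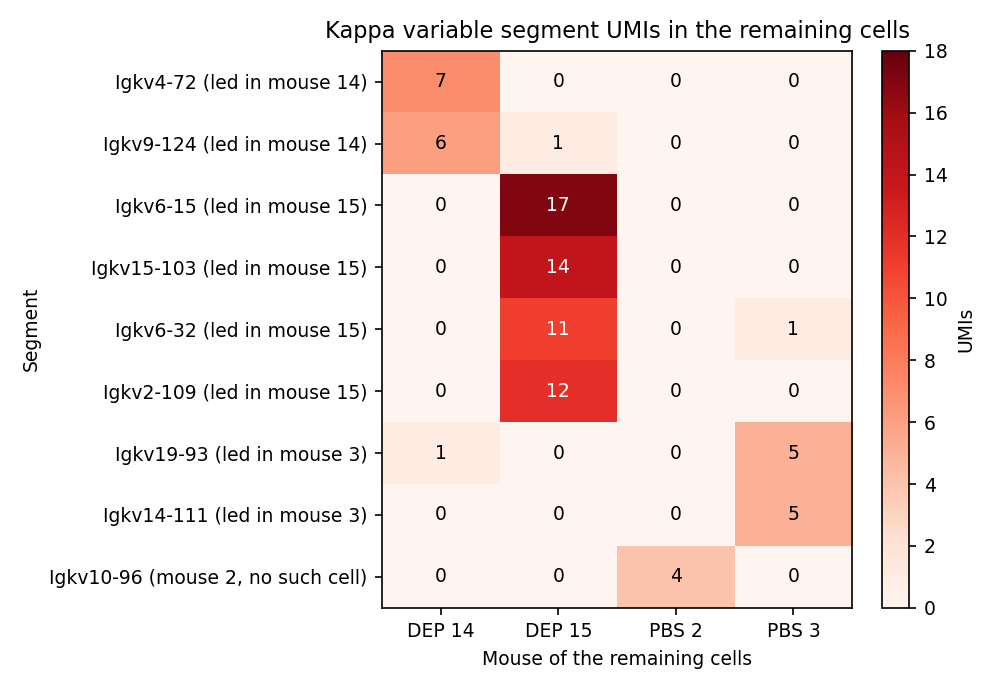
UMIs of the 8 leading kappa segments and of Igkv10-96 (vertical axis) in the remaining cells of each mouse (horizontal axis), with the count written in each field. Counts of 5 to 17 lie where the segment led a high-immunoglobulin cell of the same mouse, and the other fields of those 8 segments hold 0 or 1.

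Mouse 2 had no high-immunoglobulin cell, and most of its Igkc lay in a few cells at a middle level. There, 9 cells with 38 to 81 Igkc UMIs, 4 of them multi-member and 5 remaining, held 574 of its 696 Igkc UMIs (82.5%). Their median depth was 1920 UMIs against 2758 for all cells of the mouse. All 9 had C1qa, at 3 to 54 UMIs. Igkv10-96 was found in 5 of the 9, which held 8 of its 9 UMIs in the table. In the other 3 mice only 4 cells outside the high-immunoglobulin ones had at least 30 Igkc UMIs.

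The secretory transcripts were set against Igkc in both kinds of cell, as a description with no test. By summed UMIs, Igha was higher beside Igkc in the remaining cells of the 3 mice with high-immunoglobulin cells. For 100 Igkc UMIs, Igha stood at 36.4 (interval 35.1 to 37.6) in the high-immunoglobulin cells and 40.4 (33.1 to 49.0) in the remaining cells of mouse 14. In mouse 15 it was 31.9 (31.1 to 32.7) and 42.1 (36.6 to 48.3), and in mouse 3 it was 35.7 (34.0 to 37.6) and 57.7 (45.3 to 73.0). The intervals leave out the spread between cells, and the high-immunoglobulin side is a few cells per mouse. In mouse 15, 1 of them had 1650 Igha beside 10961 Igkc UMIs and another 3106 beside 5913. No difference between the 2 kinds of cell is therefore read from the intervals. Over all mice it was 33.7 (33.1 to 34.3) and 38.8 (35.3 to 42.5). In mouse 2 the remaining cells had 21.6 (16.8 to 27.4), below those of the other 3 mice.

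Jchain gave 16.8 (16.0 to 17.6) and 26.1 (20.6 to 32.8) for 100 Igkc UMIs in mouse 14, and 20.7 (20.1 to 21.4) and 20.6 (17.1 to 24.7) in mouse 15. In mouse 3 it gave 19.7 (18.5 to 21.1) and 33.2 (24.6 to 44.1). These intervals too leave out the spread between cells. Over all mice Mzb1 gave 0.321 (0.270 to 0.378) in high-immunoglobulin and 0.303 (0.0984 to 0.709) in remaining cells. The leading segments gave 2.73 (2.44 to 3.03) and 3.57 (1.88 to 6.19) in mouse 14, 1.95 (1.78 to 2.13) and 7.68 (5.71 to 10.1) in mouse 15, and 2.75 (2.34 to 3.23) and 5.10 (2.41 to 9.58) in mouse 3.

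Cd79b gave 0.0249 (0.0124 to 0.0445) for 100 Igkc UMIs in the high-immunoglobulin cells and 7.65 (6.33 to 9.17) in the remaining cells. The former were chosen for their Igkc, so that a low ratio there was fixed by the choice. By mouse the ratio in remaining cells was 6.32, 4.41, 7.01 and 23.0 in mice 14, 15, 2 and 3. In the remaining cells Cd79b had 23, 31, 27 and 45 UMIs in these mice, or 10.5%, 9.58%, 13.0% and 17.2% of cells. Mouse 2 was thus not the lowest in the share of cells, as it was for Igkc. Cd79a was in 0.553%, 1.28%, 1.04% and 0.478% of remaining cells, Ms4a1 in at most 0.478% and Mzb1 in at most 1.28%.

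Ighm, the constant region of IgM and no member, also lay mostly in remaining cells. It had 170, 235, 138 and 222 UMIs in mice 14, 15, 2 and 3, and 159, 175, 129 and 196 of these in remaining cells. For 100 Igkc UMIs it gave 0.0701 in the high-immunoglobulin cells and 40.0 (36.5 to 43.8) in the remaining cells. A low ratio in the former was again fixed by their choice for Igkc. By mouse the remaining cells gave 43.7, 24.9, 33.5 and 100 in mice 14, 15, 2 and 3. Of the other constant genes, Ighd had 16 UMIs, Ighg1 5 and Ighg2b 17 in all. The lambda chains Iglc1, Iglc2 and Iglc3 had 114, 243 and 90, of which 22, 195 and 67 were in the 8 cells.

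In the remaining cells Igkc was widely seen. A UMI of it was in 63.0% of the 181 remaining cells of mouse 14, 73.2% of 313 in mouse 15, 28.6% of 192 in mouse 2 and 43.5% of 209 in mouse 3, at median depths of 4309, 3334, 2778 and 4611 UMIs. The mean was 2.01, 2.25, 2.01 and 0.938 UMIs per cell, and 0.442, 0.709, 1.01 and 0.187 with every cell thinned to 1000 UMIs, where PBS mouse 2 was the highest. Thinned in this way the shares were 21.5%, 39.3%, 12.5% and 13.4%. The DEP mice were then both higher, with a mean of 30.4% ± 12.6 (SD, n = 2) against 12.9% ± 0.634 (n = 2). The difference of 17.5 percentage points gave p = 0.333 in an exact two-sided permutation test, the smallest p that 2 mice against 2 allow. Counting only cells with at least 2 Igkc UMIs gave 4.97% and 10.5% against 6.77% and 0.957%, which overlapped (exact permutation p = 0.667). No order of expression is read from these shares, since the thinned mean was highest in mouse 2. That mean rests in large part on 5 remaining cells with 38 to 74 Igkc UMIs. The number of high-immunoglobulin cells, 2, 4, 0 and 2, was highest and lowest in the same mice as the shares, and its part in them was not tested.

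The remaining cells were divided into 4 clusters, without immunoglobulin genes or members. Igkc was in 59.2% of the 500 cells of cluster 1 (leading genes Rgs1, Apoe and the class II gene H2-Eb1), 50.3% of the 175 of cluster 2 (Plac8, Tmsb10, Ifitm3), 53.8% of the 119 of cluster 3 (C1qa, C1qc, Pf4) and 40.6% of the 101 of cluster 4 (Ccl7, Ccl12, Cxcl2). Their median depths were 4755, 3079, 3756 and 2503 UMIs. On the CPM scale, in which counts are scaled to a total of 1000000 UMIs, Igkc stood at 422, 443, 455 and 350. Igha for 100 Igkc UMIs was 37.2 (33.2 to 41.7), 38.9 (30.4 to 49.5), 45.8 (35.5 to 58.8) and 41.3 (27.5 to 60.9). Over all mice both quantities were thus close between clusters. Within single mice Igkc was less even. It stood at 352, 368, 570 and 597 CPM in clusters 1 to 4 of mouse 14, at 551, 800, 586 and 420 in mouse 15, at 652, 28.6, 23.4 and 243 in mouse 2 and at 180, 88.5, 335 and 46.8 in mouse 3.

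Cd79b was less even over the clusters. It stood at 33.9, 9.08, 42.6 and 49.4 CPM, and was in 2.29% of cells of cluster 2, the one led by Plac8, against 16.2% of cluster 1. Cluster 2 held only 5 Cd79b UMIs. In clusters 1 and 2, Cd79b stood at 28.25 and 12.3 CPM in mouse 14 and at 27.2 and 0 in mouse 15. It stood at 31.2 and 28.6 CPM in mouse 2 and at 46.0 and 9.83 in mouse 3. Ighm stood at 155, 147, 208 and 293 CPM.

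Comparison of the groups over all cells rested on counts summed per mouse. Scaled by TMM, which sets library sizes after trimming extreme genes, Igkc stood at 13740 and 19845 CPM in DEP mice 14 and 15 and at 934 and 5334 in the PBS mice 2 and 3. The DEP mice were both higher, with a log2 fold change of 2.42 ± 0.56 (SE) and an adjusted p of 0.782 in edgeR's quasi-likelihood test. Igha stood at 5006 and 6383 against 180 and 1946 CPM (log2 fold change 2.41 ± 0.69, adjusted p = 0.782 in edgeR), and Jchain at 2345 and 4115 against 156 and 1077 (2.37 ± 0.60, adjusted p = 0.782 in edgeR). Cd79b ran the other way, at 33.1 and 41.4 against 42.9 and 50.2 CPM (-0.32 ± 0.24, adjusted p = 0.848 in edgeR). It was lower in each DEP mouse than in either PBS mouse, as were 19.0% of all genes tested.

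None of the 4 members tested was called, against 0.0179% of the 5582 genes tested, which is 1 gene, Plac8. At an unadjusted p under 0.05 there were 3 of the 4 and 339 genes. Igkc, Igha and Jchain were higher in each DEP mouse than in either PBS mouse, as were 18.1% of all genes tested. Mzb1, Cd79a and Ms4a1 did not reach the filter of a UMI in 5% of cells. Without that filter the 3 were higher in both DEP mice as well, Mzb1 at 43.7 and 56.3 against 7.96 and 33.3 CPM, Cd79a at 25.0 and 38.1 against 13.3 and 11.7, and Ms4a1 at 2.08 and 7.61 against 1.33 and 1.66. That order held for 18.9% of the 11617 genes then tested, and the lowest adjusted p of the 7 was 0.137, for Igkc in edgeR. The lambda constant gene Iglc2, no member, was called in that fit (log2 fold change 1.84 ± 0.32, adjusted p = 0.04755 in edgeR). It stood at 86.4 and 85.3 CPM under DEP and at 10.6 and 33.3 under PBS, and 195 of its 243 UMIs lay in the 8 high-immunoglobulin cells.

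The same genes were also compared without the 8 high-immunoglobulin cells. These were chosen for their Igkc, 6 of them from DEP mice, so that a smaller difference follows from the choice and the values are a description. Igkc then stood at 423 and 608 CPM under DEP and at 945 and 518 under PBS, a log2 fold change of -0.49 ± 0.25. Igha stood at 164 and 254 against 182 and 227 (0.04 ± 0.21), and Jchain at 111 and 126 against 158 and 127 (-0.25 ± 0.18). This set of cells was chosen after the data were seen. Leaving out mouse 3 raised the log2 fold change of Igkc to 4.17 (adjusted p = 0.000358 in edgeR) and leaving out mouse 2 lowered it to 1.66 (adjusted p = 0.00814 in edgeR), with the lone PBS mouse assumed to vary as the DEP mice do.

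**Figure D5:**
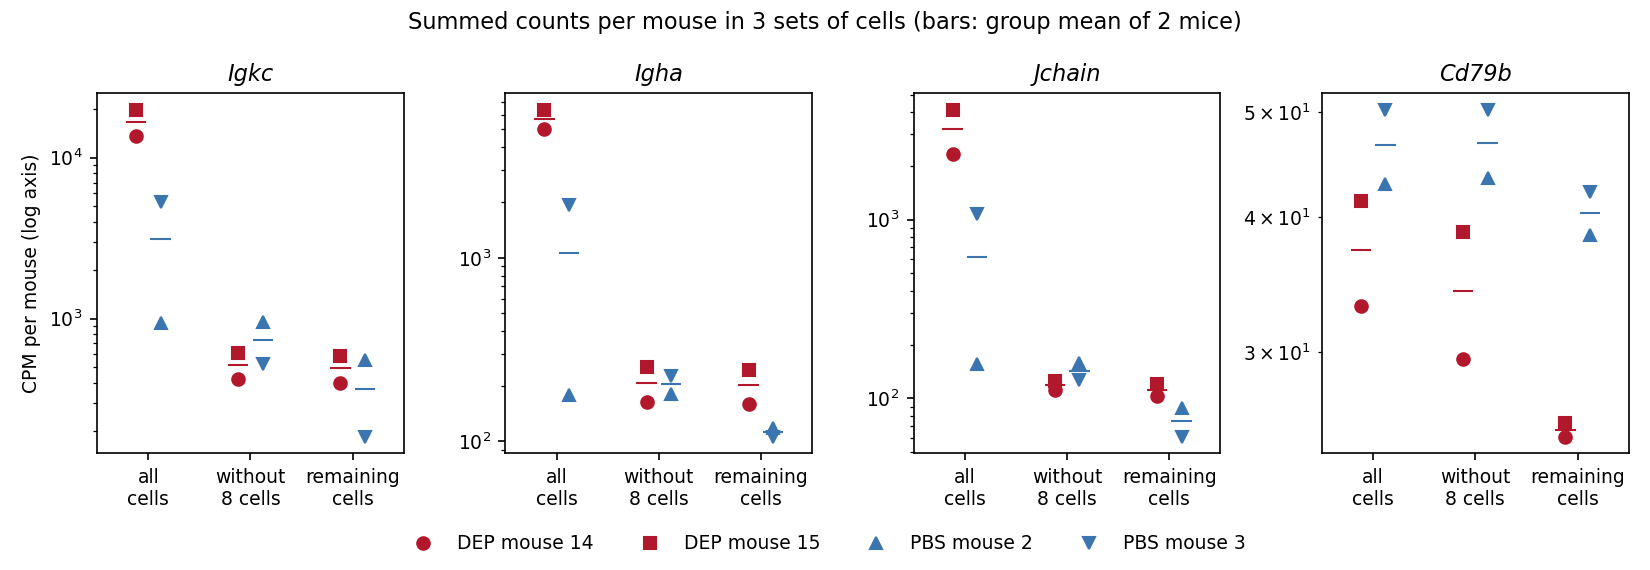
CPM per mouse (vertical log axis, with its own range in each panel) of Igkc, Igha, Jchain and Cd79b in all cells, without the 8 high-immunoglobulin cells and in the remaining cells, with a bar at the mean of each group of 2 mice. The DEP mice lie above the PBS mice for the first 3 genes in all cells, and the groups overlap for Igkc in the other 2 sets.

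In the remaining cells Igkc stood at 396 and 584 CPM under DEP and at 549 and 184 under PBS, which overlapped (log2 fold change 0.45 ± 0.36, adjusted p = 0.861 in edgeR). The 549 CPM of mouse 2 rests in large part on 5 cells with 38 to 74 Igkc UMIs. The rule that set the remaining cells reads Igha, Jchain and Cd79b but not Igkc, so the comparisons of those 3 are a description. Igha stood at 160 and 246 against 118 and 106 CPM (0.87 ± 0.21, adjusted p = 0.625 in edgeR). Jchain stood at 103 and 121 against 88.4 and 60.9 (0.62 ± 0.21, adjusted p = 0.753 in edgeR). Both were higher in each DEP mouse than in either PBS mouse, as were 17.5% of genes. Cd79b stood at 25.0 and 25.8 against 38.5 and 42.2 (-0.67 ± 0.27, adjusted p = 0.754 in edgeR), lower in both DEP mice as were 19.6% of genes. None of the 4 was called, against 0.0180% of 5554 genes, again Plac8 alone. At an unadjusted p under 0.05 there were 3 of the 4, all read by the rule, and 350 genes. Without mouse 14 the log2 fold change of Igha was 1.14 and that of Igkc 0.70. Without mouse 2 that of Igkc was 1.42. Each of these rests on a lone mouse in 1 group. Leaving out mouse 3 gave Igkc a log2 fold change of -0.16.

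Multi-member cells were 4.23% and 6.29% of cells in the DEP mice and 4% and 5% in the PBS mice. The means were 5.26% ± 1.45 (SD, n = 2) and 4.50% ± 0.707 (n = 2), overlapping, with p = 0.667 in the exact two-sided permutation test. The order depended on the rule. Cells with 2 or more members were 23.3% and 30.5% against 8% and 17.3%, and cells with 3 or more of all 7 members 19.6% and 26.6% against 7% and 12.7%, with each DEP mouse above the PBS mice and p = 0.333 in the exact permutation test, the smallest possible. With cells thinned to 1000 UMIs before the rule was applied, the order turned, to 1.06% and 1.20% against 3% and 1.82%. High-immunoglobulin cells were 1.06% and 1.20% against 0% and 0.909%.

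Genes that act on the lineage were taken from 3 fixed lists. Of 11 factors that support B lineage cells, 5 were tested over all cells and none was called, with a median log2 fold change of -0.18 against -0.01 for all genes. At an unadjusted p under 0.05 there were 2. Tnfsf13, the ligand APRIL that sustains plasma cells, stood at 8.28 and 7.52 CPM under DEP and at 16.1 and 22.6 under PBS (-1.33 ± 0.38, adjusted p = 0.782 in edgeR). Il15, a cytokine of lymphocyte survival, stood at 19.7 and 21.8 against 10.7 and 13.4 (0.75 ± 0.34, adjusted p = 0.805 in edgeR). Tnfsf13b, the B cell survival factor BAFF, stood at 46.6 and 39.9 against 51.0 and 46.9 CPM. Il10 and Tgfb1, cytokines that favour IgA, had log2 fold changes of 0.14 ± 0.29 and -0.32 ± 0.22.

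Of 16 genes of B cell receptor signalling, 12 were tested and none was called, with a median of -0.02 and none at an unadjusted p under 0.05. The remaining cells express most of them. Of those highest in multi-member cells, the coreceptor Cd81 stood at 2200 CPM in remaining cells. The phosphatases Ptprc and Ptpn6 stood there at 332 and 265, the kinase Lyn at 206 and the adaptor Blnk at 69.2. Of 8 receptors that bind or carry antibodies, 6 were tested and none was called, with a median of 0.12. The common chain Fcer1g (4305 CPM in remaining cells), Fcgr3 (925), the inhibitory receptor Fcgr2b (694) and Fcgr4 (365) led the list. Fcgr1, the high affinity receptor used in the sort, stood at 265 and 223 against 215 and 167 CPM over all cells (0.36 ± 0.17, adjusted p = 0.805 in edgeR).

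The genes whose pattern over the 943 cells was most like that of the 6 members other than Igkc were lambda chains and plasma or B cell genes. Pearson's r was taken over log2(UMIs per 10000 + 1), among 9678 genes with a UMI in at least 10 cells. It was highest for Iglc2 (0.62), Iglc3 (0.60), Iglv1 (0.58), the B cell marker Vpreb3 (0.50) and Ly6d (0.47). Next came Derl3 (0.42), Sdc1 (0.35), Iglc1 (0.32), Txndc5 (0.31) and the antiprotease Slpi (0.30). Cells share libraries and depth, and no p is given. Without the 8 high-immunoglobulin cells, r fell to 0.00 for Derl3, -0.03 for Sdc1, 0.01 for Txndc5 and 0.03 for Slpi, and was 0.40 for Ly6d and 0.39 for Iglc2.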

How the data were processed

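RNA of 4 libraries, 1 per mouse, was sequenced, and the submitters' processing notes name Cell Ranger, STAR 2.6.1a and mm10. The authors filtered cells and low genes and deposited raw UMI counts in 1 table, whose column names end in the mouse number. The deposited counts were used as they stand. Sums per mouse were made for all cells and for the remaining cells, kept at over 1 CPM in 2 libraries and a UMI in 5% of cells, and compared by edgeR 4.0.16 (R 4.3.3; TMM, quasi-likelihood test, Benjamini-Hochberg, adjusted p under 0.05). The SE is the fold change divided by the root of the F statistic. CPM without TMM was used for clusters and fixed lists. Clusters came from scran 1.30.0 (500 variable genes, Ward, 4 clusters). Shares were compared in Python 3.11.15 with scipy 1.17.1. DESeq2 1.42.0, other scalings, filters and rules, and each mouse left out served as alternatives.

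Members, lists and classes were chosen with earlier results of these data known. Named were the members, immunoglobulin constant genes, leading variable segments, the leading genes of fixed lists, the 10 genes most like the members and 3 sort markers. Names outside that rule were chosen after their values were seen, as was the limit of 1000 Igkc UMIs. Among them are Prdm1, Tnfrsf17, Bst2, Pax5, Ralgps2, the cluster genes and the segments other than the leading ones. The replicates were separate mice, and 1 cell barcode occurred in 2 mice. On simulated data with log2 changes of 1 or 2 in either direction, 76.0% of 200 changed genes were called in the fit over all cells. In that of remaining cells 72.0% were called. Igkc had 94.7% of its UMIs in 8 cells, and the share called among genes held by so few cells was not tested. No column was left unused.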

Additional observations from a re-analysis of the deposited data

How the results depend on the processing

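No paired analysis was possible because the groups share no replicate number. No member was called over all cells, but 1 was by the likelihood ratio test, 2 with thinned cells and 3 with no filter, and 0 to 3 with a mouse left out. In remaining cells 1 was called with no filter, 1 when multi-member cells were those with 2 or more members, and 0 to 2 with a mouse left out. None was called under the other alternatives run, which include DESeq2, RLE scaling and a library size without immunoglobulin genes. The share of all genes called under each alternative is not given here, so these counts are not read as a result about the members. No support factor was called under any of the 12 alternatives. Without the 8 high-immunoglobulin cells, an alternative chosen after seeing the data, Igkc turned to -0.49 and Jchain to -0.25 on the log2 scale over all cells. In remaining cells Igkc turned to -0.046 with thinned cells, -0.16 without PBS mouse 3 (up to 1.42 with another mouse left out) and -0.48 with 4 or more members, where Jchain turned to -0.16. The cause was not tested. The difference in multi-member cells, 0.760 percentage points, turned to -1.28 with thinned cells, rose to 14.3 with 2 or more members and 13.2 with 3 of all 7, and ranged from -0.267 (without mouse 15) to 1.79 with a mouse left out. The difference in remaining cells with Igkc, 17.5 percentage points, was positive under all 8 alternatives but ranged from 3.89 with at least 2 Igkc UMIs, where the mice overlapped, to 32.0 without thinning, and from 8.60 (without mouse 15) to 26.4 (without mouse 14) with a mouse left out. The totals of Igkc, Igha and Jchain rest on 8 cells, and members under 5% of cells were tested only without that filter.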

Other observations

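Remaining cells of each mouse were put in 4 bins of like size by depth. From the shallowest to the deepest bin of mouse 14, the share with an Igkc UMI was 34.8%, 46.7%, 80.0% and 91.1%, at median depths of 2104, 3604, 4715 and 8283 UMIs. In mouse 2 it was 18.8%, 35.4%, 27.1% and 33.3%, at 1268, 2116, 3850 and 6740 UMIs. In DEP mouse 15 it was 62.03%, 64.1%, 82.05% and 84.62%, and in PBS mouse 3 it was 33.96%, 30.77%, 46.15% and 63.46%. Over the same bins of mouse 2 the mean level of Ighm was 0.188, 0.521, 0.771 and 1.21 UMIs per cell, and that of C1qa 7.27, 11.1, 20.3 and 43.6.

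Iglc1 had 84 of its 114 UMIs in mouse 3, and 63 of the 114 lay in plasma side cells other than the high-immunoglobulin ones. Igkv4-91 had 8 UMIs in 2 cells, both of mouse 3.

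Marker lists of other cell types were summed in the same way. The T cell list gave 0.955 UMIs per 10000 in the 8 high-immunoglobulin cells and 0.461 in remaining cells, and the stromal list 0 and 1.17. The epithelial list gave 0.716 and 1.26, the NK cell list 0.239 and 0.106, and the neutrophil list 0.239 and 0.451. The plasmacytoid dendritic cell list gave 11.9 and 4.31, of which Bst2, a gene that plasma cells also express, held 44 of 50 UMIs in the 8 cells. The B cell list gave 21.7 and 2.71, of which Ly6d and Vpreb3 held 51 and 17 of 91 UMIs in the 8 cells. The Ccr2+ list gave 96.7 and 206, and the Ccr2- list 217 and 548.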
